A study of Mus musculus with 12 samples.

Results

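The ETS family blood factors described here are 10 genes, Spi1, Spib, Fli1, Erg, Etv6, Ets1, Ets2, Elf1, Elf4 and Gabpa, and their members in the data are the accessible regions, or peaks, that carry one of these names as the gene with the nearest annotated start site. In all, 168 of 84243 peaks were named for 9 of the 10 genes, and none for Gabpa. The peaks come from ATAC-seq, in which a transposase inserts sequencing adapters into open chromatin, of 6 sorted cell populations with 2 replicates each, 12 samples in all. The populations were hematopoietic stem cells (HSC), megakaryocyte progenitors (MkP), erythroid progenitors (EP), granulocyte and macrophage cells (GM) and B cells, all sorted from bone marrow, as well as thymic T cells, from untreated wild-type C57BL/6 mice 8 to 12 weeks old. The populations are defined by surface markers, for example GM cells by Gr1 together with Mac1, so each may hold cells at several stages of a lineage.

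The list is 1 set of regions pooled over all 6 populations. Each region was open in 1 or more of them, and the list does not record which. There is no signal per sample, the score is 0 for every peak, and the sequencing depth behind a peak is unknown, so no level could be compared between cell types, the labelled cell types could not be checked against marker genes, and no test was made. Counts and shares are given as a description beside those of the whole list, and peaks of 1 gene share their locus and are not replicates. Every peak is 499 bp wide and no peaks overlap, so a broad open region can be represented by several neighbouring peaks.

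ETS factors share the ETS domain, a winged helix-turn-helix that binds DNA around a GGAA core, and the bases beside the core and the partner proteins set which member binds where. In blood, PU.1, the product of Spi1, is needed for myeloid and B cell development, Fli1 and Erg act in stem cells and megakaryocytes, and Ets1 acts in lymphocytes. Several of the genes are regulated by ETS, RUNX and GATA factors, among them their own products.

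**Figure D1:**
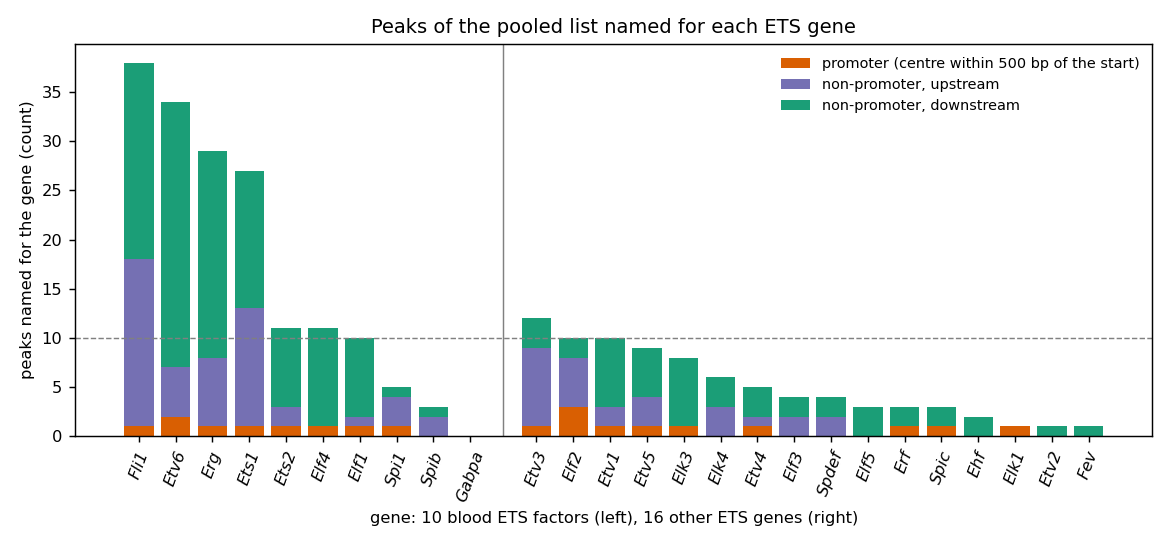
Number of peaks (y axis) named for each of the 10 blood ETS factors (left) and 16 other ETS genes (right), split into promoter peaks and non-promoter peaks upstream or downstream of the start site; the dashed line marks 10 peaks. Fli1, Etv6, Erg and Ets1 stand at 38, 34, 29 and 27 peaks, and the highest of the other ETS genes, Etv3, at 12.

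The peaks were concentrated on 4 of the genes. Fli1, a factor of megakaryocyte and stem cell programmes, had 38 peaks, Etv6, a transcriptional repressor that is a frequent fusion partner in leukemia, had 34, Erg, a factor needed for stem cell maintenance, had 29 and Ets1 had 27. These 4 genes held 128 of the 168 peaks, or 76.2%. Ets2, a factor that responds to Ras and MAP kinase signalling, and Elf4, which is known for a role in stem cell quiescence and cytotoxic lymphocytes, had 11 peaks each. Elf1, a factor expressed across blood lineages, had 10. Spi1 had 5 and Spib, the PU.1 relative of B cells and plasmacytoid dendritic cells, had 3. In all, 7 of the 10 genes had 10 or more peaks, where 1992 of the 19040 genes named in the list did (10.5%). By number of peaks, Fli1 ranked 22 among the 19040 genes, Etv6 43, Erg 80 and Ets1 117, whereas Spi1 ranked 4665 and Spib 7850. With naming by the nearest curated RefSeq start, Ets1 had 39 peaks, Erg 29, Fli1 26 and Etv6 22. The order of these genes thus depends on the starts used.

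The median over the 10 genes was 11 peaks, with a range from 0 to 38, beside 3 over all genes of the list. Genes enter the list only with at least 1 peak, so the median of all genes leaves out genes without one. The 16 other ETS genes of the mouse had a median of 4 peaks and a range from 1 to 12, with 3 genes at 10 or more, namely Etv3, Elf2 and Etv1. Genes that encode common partners of ETS factors in blood (Runx1, Gata2, Tal1, Lyl1, Lmo2, Irf4 and Irf8) had a median of 14 and a range from 4 to 35, with Runx1 the highest. These counts are not corrected for gene length. Per length the order of the genes was another. Within the gene bodies, from the first to the last base of the curated RefSeq transcripts and whatever name the peaks carry, Spib had 3.29 peaks per 10 kb, from 2 peaks in 6.08 kb, and Spi1 had 2.1, from 7 peaks in 33.4 kb. The Spi1 body begins at an alternative start, 14.3 kb upstream of the start used in the list. It therefore takes in peaks described below as upstream of Spi1. Ets2 had 1.07 peaks per 10 kb, from 2 peaks in 18.6 kb, and Gabpa had 0. Among the 6 members of at least 50 kb, Ets1 had 2.06 peaks per 10 kb, Elf4 1.92, Fli1 1.84, Elf1 1.58, Etv6 1.36 and Erg 1.01. Over 4667 protein-coding genes of at least 50 kb the median was 0.355 and the 90th percentile 1.03, so that the density of Erg lay just below the 90th percentile and those of the other 5 genes above it.

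Of the 168 peaks, 9 lay at promoters, meaning no more than 500 bp between the peak centre and the start site given in the list (5.36%, beside 13171 or 15.6% of all peaks), and 159 were not. The promoter peaks belonged to 8 of the 10 genes, beside 64.5% of all genes of the list with at least 1. Etv6 had a pair of them, centred at -493 and 32 bp, and the 7 other genes had 1 each. Their centres lay at 63 bp for Spi1, -192 bp for Fli1, -41 bp for Erg, -44 bp for Ets1, -26 bp for Ets2, -30 bp for Elf1 and 230 bp for Elf4, where a negative distance is upstream. Spib and Gabpa had none. For Spib the nearest peak was centred at 687 bp, in an intron. The other peaks, at -1126 and -2308 bp, lie outside the Spib body, in introns of another transcript.

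The non-promoter peaks were mostly in introns, including the upstream Spib peaks in introns of another transcript. Introns held 104 of the 159 (65.4%), beside 48.0% of all 71072 non-promoter peaks, 49.3% of those of the other ETS genes and 34.3% of those of the partner genes. A further 52 were intergenic by the list and 3 were of other classes. Of the intergenic peaks, 11 named Ets1 and 3 named Spi1 lie inside the curated RefSeq bodies of these genes. Downstream of the start used in the list lay 110 and upstream 49, these Ets1 and Spi1 peaks among the latter. The median distance from the start was 35136 bp, beside 22261 bp over all non-promoter peaks. Beyond 50 kb lay 56 (35.2%, beside 27.7%), but beyond 100 kb only 12 (7.55%, beside 13.0%). All 12 were intronic peaks of Etv6, and the other genes had none beyond 100 kb. The list annotates 22 to a repeat (13.8%, beside 17.9%), and the median GC content was 48.7%, with a range from 34.1% to 78.2%, beside a median of 47.7%.

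**Figure D2:**
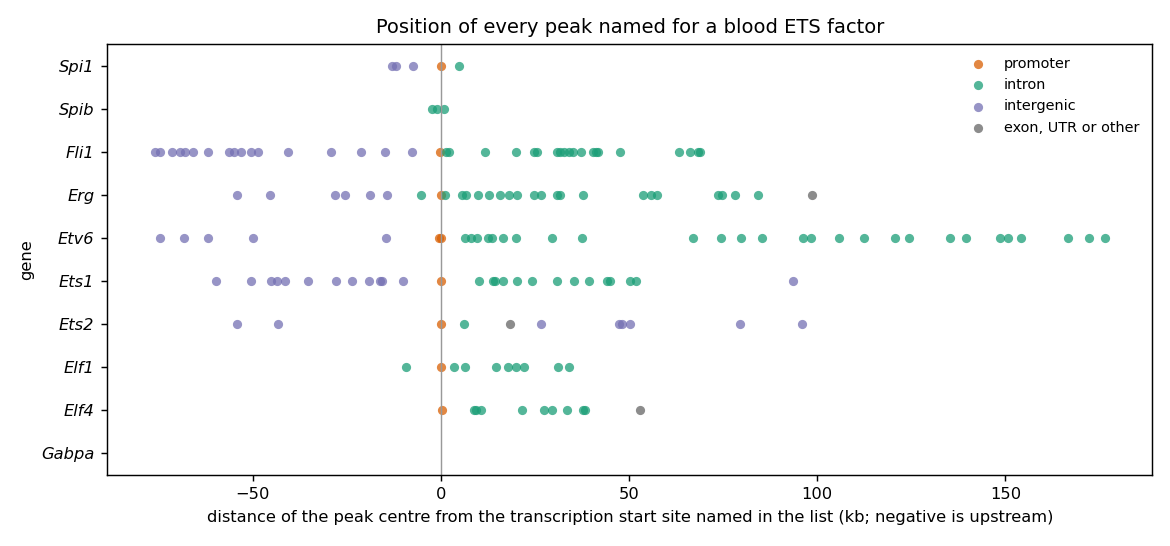
Distance in kb of every peak centre from the start site named in the list (x axis; negative is upstream) for each of the 10 genes (y axis), coloured by annotation class. Etv6 reaches from -74815 to 176454 bp, Elf4 has no peak upstream, Spib lies within -2308 to 687 bp and Gabpa has no peak.

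The genes differed in how their peaks were laid out. Fli1 had 17 upstream and 20 downstream peaks between -76132 and 68853 bp, and up to 7 of them fell within 10 kb, in its introns from 32578 to 41792 bp. Etv6 had 5 upstream and 27 downstream peaks, all 27 intronic, and 6 of them fell within 10 kb between 6417 and 16350 bp. Ets1 had 12 upstream and 14 downstream peaks between -59896 and 93502 bp. Of the 12, 11 lie inside the curated RefSeq body of Ets1, which begins further upstream than the start used in the list. For Ets2, 8 of its 10 non-promoter peaks were intergenic and 1 was intronic. Its body is 18.6 kb long, and its peaks reached from -54357 to 96040 bp. All 10 non-promoter peaks of Elf4 were downstream, 9 of them in introns, up to 52872 bp. Elf1 had 9 non-promoter peaks, all intronic, from -9247 to 33991 bp.

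Erg has start sites spread over its locus, and its peaks were named against the start at 95459348 or the start at 95586593 of chromosome 16 (build GRCm38.p6, the RefSeq name of mm10). The start at 95459348, used by shorter transcripts, had the only promoter peak and 20 non-promoter peaks, 1 upstream at -5435 bp and 19 downstream up to 98705 bp. The start at 95586593 had 6 upstream and 2 downstream peaks, and the nearest was centred at 963 bp. The start that RefSeq selects as representative, at 95530365, had no peak within 40437 bp. It lies inside the widest stretch without a peak named for Erg, 106019 bp between neighbouring centres. The bases before the start with the promoter peak, chr16:95459374-95459598 on the minus strand, are shown because they lie under the only promoter peak of the gene, without the bases next to the start that a predicted exon covers. Capitals mark AGATAA, the letters of GATA factors, and AGGAAG, letters of ETS factors, each on the opposite strand as TTATCT and CTTCCT.
Erg promoter: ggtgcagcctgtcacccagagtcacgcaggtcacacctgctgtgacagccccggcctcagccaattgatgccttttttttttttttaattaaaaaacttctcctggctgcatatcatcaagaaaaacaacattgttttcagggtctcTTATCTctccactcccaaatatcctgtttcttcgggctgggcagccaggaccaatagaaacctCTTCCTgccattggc

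The peak names depend on which starts the list knows. The curated RefSeq annotation holds 17 start positions for the 10 genes, of which 13 had a peak centre within 500 bp, in 9 genes, all but Spib. At 4 of these 13 the list gave another gene or a distance beyond 500 bp. The representative Ets1 start at 32636241 of chromosome 9 had a peak (chr9:32635897-32636395) centred 95 bp from it, which the list describes as intergenic at -59896 bp from the downstream Ets1 start. The representative Elf4 start at 48454319 of chromosome X had a peak (chrX:48454075-48454573) centred 5 bp from it, which the list gives as intronic at 8808 bp. The representative Elf1 start at 79481194 of chromosome 14 had a peak (chr14:79481443-79481941) centred at 498 bp, which carries the name of the neighbour Wbp4. The last is the Gabpa start. With these peaks the Elf1, Elf4 and Ets1 loci each had peaks at more than 1 start.

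Gabpa, the DNA-binding subunit of GABP and a regulator of mitochondrial genes, had no peak in its name but did have one at its start. The peak chr16:84834778-84835276 was centred 97 bp upstream of the Gabpa start at 84835124 and carries the name of the divergent neighbour Atp5j, a subunit of ATP synthase, whose start is 5 bp from the centre. The peak had a GC content of 59.1% and held GGAAGT on 2 sites, 1 of which was the longer GAGGAAGT. In the 300 bases around the Gabpa start (250 before and 50 after), GGAAGT was found 1 time, and of 32851 RefSeq promoter windows of this length 23.8% held it. The next peak downstream of the start was 44.2 kb away, beyond the end of the gene, so no peak lay inside the gene body of 28.7 kb.

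Of the 139 peaks inside the bodies of the 10 genes, 15 (10.8%) carried the name of a neighbour, in 5 genes. Elf1 had 6 of them, 4 named Sugt1 and 2 named Wbp4. Etv6 had 4 named Bcl2l14, Fli1 had 2 named Kcnj1, Spi1 had 1 named Slc39a13 and 1 named Mybpc3, and Spib had 1 named Mybpc2.

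The region upstream of Spi1 is known for an upstream regulatory element that is bound by PU.1 itself, RUNX1 and C/EBP factors and that is needed for normal PU.1 levels. Which peak of the list corresponds to it was not tested. From the end of the neighbour Slc39a13 to the representative Spi1 start at 91096678 of chromosome 2 lie 26.4 kb, and 7 peaks fell into this stretch. The list names 3 of them for Spi1, at -13104, -11973 and -7483 bp from the start. The other 4 carry the name of Slc39a13, a zinc transporter gene. Among these 4, the one at -26185 bp is the Slc39a13 promoter peak, and the others were centred at -18101, -15696 and -13640 bp from the Spi1 start. The change of name fell between peaks 536 bp apart, since the peak at -13640 bp is 12723 bp from the Slc39a13 start. An alternative Spi1 transcript starts 14.3 kb upstream of the representative start, at 91082405, and the peak at -13640 bp lies 633 bp inside it. The 3 upstream peaks named Spi1 also lie inside this transcript. Counted by position and without the Slc39a13 promoter peak, Spi1 had 6 upstream peaks.

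All 6 of these upstream peaks held AGGAAG, 3 held GGAAGT and 2 held GAGGAAGT, the letters preferred by PU.1. Over all non-promoter peaks of the list, AGGAAG was found in 65.0%, GGAAGT in 43.9% and GAGGAAGT in 10.2%. TGTGGT, the letters of RUNX factors, occurred in 4 of the 6 (beside 42.5% of all non-promoter peaks) and AGATAA in 0 (beside 26.9%). With 6 peaks, nothing is read from these counts as a difference from the list. Letters were searched on both strands of the whole peak. AGGAAG and GGAAGT can overlap by 5 letters, and both are part of GAGGAAGT, so their counts are not independent.

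Among the upstream peaks that carry the neighbour's name, the sequences of the one with GAGGAAGT and the one with 3 copies of TGTGGT are shown because they hold the PU.1 letters or repeated RUNX letters. They are windows of 200 bases on the plus strand of chr2:91080882-91081081 and chr2:91082938-91083137. Capitals mark the ETS letters GGAAGT or AGGAAG with any GAGGAAGT around them, the RUNX letters TGTGGT and the C/EBP letters TTGCNNAA, on either strand.
Spi1 -15696: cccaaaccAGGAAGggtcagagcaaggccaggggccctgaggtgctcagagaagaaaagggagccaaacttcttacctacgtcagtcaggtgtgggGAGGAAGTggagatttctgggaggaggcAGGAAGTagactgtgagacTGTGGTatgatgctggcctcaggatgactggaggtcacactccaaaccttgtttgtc
Spi1 -13640: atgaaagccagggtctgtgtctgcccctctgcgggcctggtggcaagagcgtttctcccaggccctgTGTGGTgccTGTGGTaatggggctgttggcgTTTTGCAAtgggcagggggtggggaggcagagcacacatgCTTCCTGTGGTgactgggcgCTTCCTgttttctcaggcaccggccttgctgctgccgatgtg

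In the peak at -15696 bp, GAGGAAGT lay 1 bp from the peak centre, another GGAAGT 27 bp and TGTGGT 45 bp from it. The peak at -13640 bp held TGTGGT 3 times, 31, 22 and 45 bp from the centre, a TTGCNNAA match 1 bp from the centre, and AGGAAG on the minus strand 40 and 60 bp from it. It held no GGAAGT. Of all 84243 peaks, 2.05% held TGTGGT at least 3 times. The peaks at -13104 and -11973 bp had 1 AGGAAG each and no match to the letters of RUNX, GATA or C/EBP factors or to GGAAGT. GC content was 60.5% in the peak at -13640 bp, 53.5% at -13104 bp, 58.7% at -11973 bp and 49.5% at -7483 bp.

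At the Spi1 start, the promoter peak chr2:91096492-91096990 held GGAAGT 1 time and TTGCNNAA 2 times and had a GC content of 61.7%. Downstream, a peak at 4890 bp in intron 2 held AGATAA 2 times and was the only one of the 10 peaks between Slc39a13 and Mybpc3 with these letters. The last peak before Mybpc3, at 16864 bp in intron 3, carries the name of Mybpc3, a cardiac myosin-binding protein gene.

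**Figure D3:**
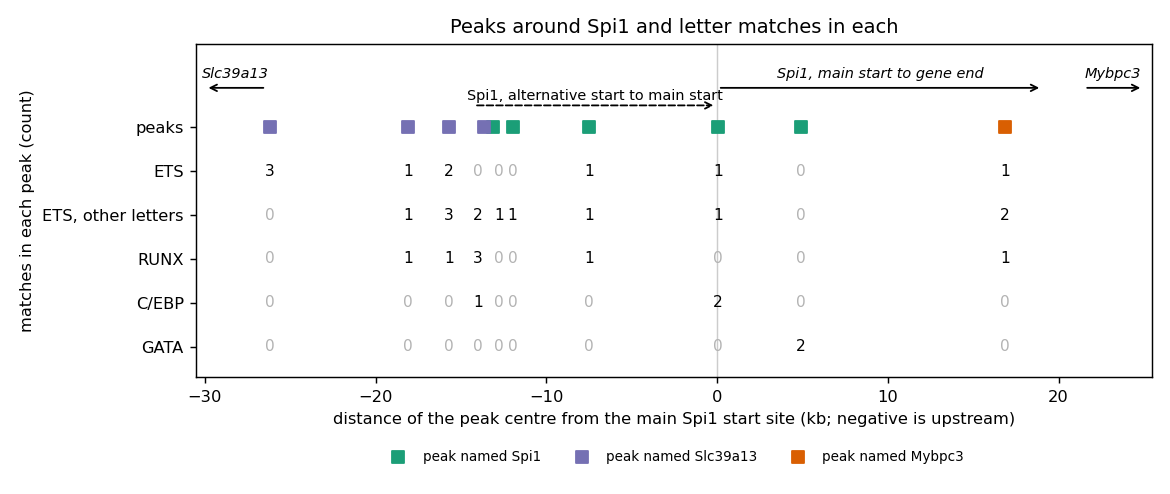
Peaks around Spi1 by distance in kb of their centres from the representative start (x axis), coloured by the gene the list names, with the number of letter matches per family in each peak written below it; arrows show the genes. Of the 7 upstream peaks, 3 carry the name Spi1, and the peak at -13640 bp has 3 RUNX matches.

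Fli1 and Ets1 lie next to each other on chromosome 9, as Erg and Ets2 do on chromosome 16, each pair transcribed in opposite directions away from each other. Between the Fli1 start and the downstream Ets1 start, the one the list uses, lay 155 kb with 29 peaks more than 500 bp from either start, 17 named Fli1 and 12 named Ets1, or 1.88 per 10 kb. Of these 29, 1 is the peak at the representative Ets1 start and 11 lie inside the Ets1 body beyond it. The intergenic stretch from the Fli1 start to the representative Ets1 start was 94.8 kb and held 17 peaks beyond its promoters, all named Fli1, or 1.79 per 10 kb. The interval between the outermost Erg start and the Ets2 start was 116 kb and held 8 peaks, 6 named Erg and 2 named Ets2, or 0.691 per 10 kb. The widest gap was 18.6 kb between the Fli1 and downstream Ets1 starts and 43.4 kb between the Erg and Ets2 starts. AGATAA occurred in 9 of the 29 peaks between Fli1 and Ets1 and in 0 of the 8 between Erg and Ets2, beside 26.9% of all non-promoter peaks. GGAAGT occurred in 13 of 29 and 5 of 8, beside 43.9%. The 29 include peaks inside the Ets1 body, whereas the 8 are all intergenic. In the intergenic stretch between Fli1 and the representative Ets1 start, AGATAA occurred in 6 of the 17 peaks and GGAAGT in 9. The peaks are few, and the difference between the loci was not tested. The names split each interval at its middle by the rule of the nearest start, so a name there does not say which gene of the pair a peak acts on.

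**Figure D4:**
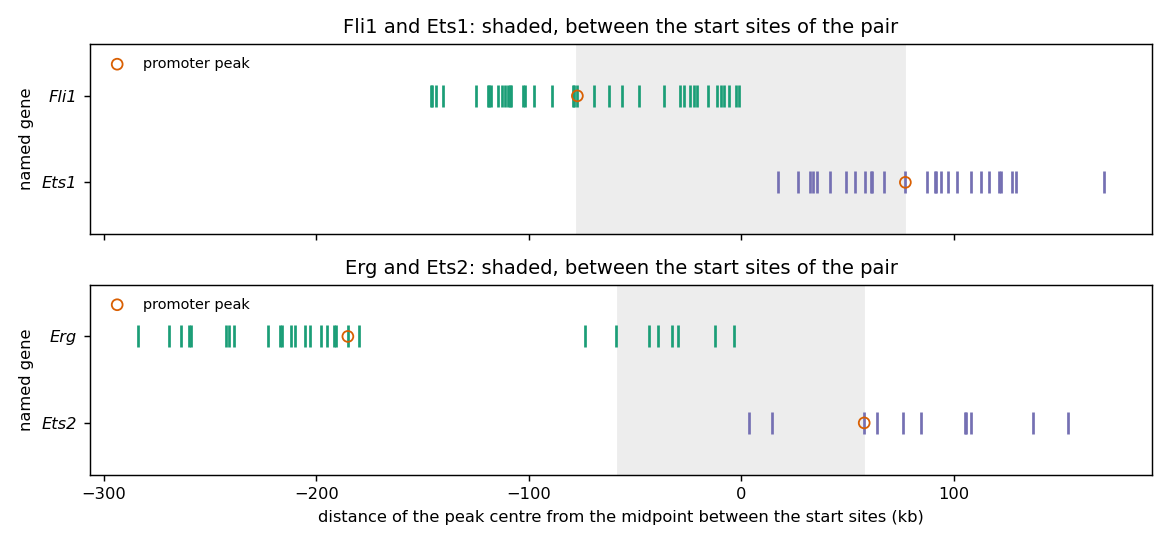
Peaks named for each gene of the neighbouring pairs (y axis) by distance in kb of their centres from the midpoint between the start sites (x axis); the interval between the starts used in the list is shaded and circles mark promoter peaks by the list. Beyond these starts' promoters lie 29 peaks for Fli1 and Ets1 and 8 for Erg and Ets2.

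Over all 159 non-promoter peaks, 82 held GGAAGT (51.6%), beside 43.9% of all non-promoter peaks. Shares of the other letters were close to those of the whole list. GAGGAAGT was found in 11.3% (beside 10.2%), AGGAAG in 66.0% (65.0%), TGTGGT in 43.4% (42.5%), AGATAA in 26.4% (26.9%), TTGCNNAA in 19.5% (20.7%), the E-box CAGCTG in 31.4% (30.4%) and TGANTCA of AP-1 factors in 19.5% (16.9%). GGAAGT together with TGTGGT occurred in 39 peaks (24.5%, beside 18.8%), and GGAAGT with AGATAA in 18 (11.3%, beside 11.6%). By gene, GGAAGT was found in 20 of 32 peaks of Etv6, 6 of 10 of Elf4, 16 of 28 of Erg, 21 of 37 of Fli1, 11 of 26 of Ets1, 4 of 10 of Ets2, 1 of 3 of Spib, 1 of 4 of Spi1 and 2 of 9 of Elf1. Of the 9 promoter peaks, 5 held GGAAGT (beside 36.1% of all promoter peaks), 8 held AGGAAG (beside 48.1%) and 0 held TGTGGT (beside 19.6%). Promoter windows of 300 bases were at hand for 11 starts of 7 of the genes, 8 of them with a peak. Of these 11 windows, 2 held GGAAGT (beside 23.8% of all such windows), 4 AGGAAG (beside 35.4%) and 0 TGTGGT (beside 16.8%). With so few peaks, 2 of them a neighbouring pair of Etv6, nothing is read from these counts.

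The longer GAGGAAGT was found in 10.2% of all non-promoter peaks. By gene, it was found in 6 of 28 peaks of Erg (21.4%), 7 of 37 of Fli1 (18.9%), 1 of 4 of Spi1 and 3 of 32 of Etv6 (9.38%). It was found in 1 of 26 of Ets1 (3.85%) and in 0 of those of Elf1, Elf4, Ets2 and Spib. AGATAA was found in 11 of 37 peaks of Fli1 (29.7%), 7 of 28 of Erg (25.0%), 8 of 32 of Etv6 (25.0%) and 6 of 26 of Ets1 (23.1%). TGTGGT was found in 14 of 28 peaks of Erg, 14 of 32 of Etv6, 16 of 37 of Fli1 and 10 of 26 of Ets1. All 3 peaks named Spib held the E-box CAGCTG, beside 30.4% of all non-promoter peaks. It occurred 3 times in the peak at -1126 bp, 2 times at 687 bp and 1 time at -2308 bp. Their GC content was 63.1%, 59.7% and 61.5%. The peaks at -1126 and -2308 bp lie outside the Spib body, and the peak inside it that is named Mybpc2 held no CAGCTG. With so few peaks per gene, these shares describe the loci and were not compared by a test.

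The GC content of single peaks marked a few that resemble promoters in composition. The promoter peaks of Ets1 and Ets2 had 73.3% and 72.9%, and those of Etv6 had 66.9% and 67.9%, whereas those of Erg and Elf1 had 43.5% and 41.7%. Among peaks that the list puts in introns, the Elf4 peaks at 8808 and 9348 bp had 72.1% and 78.2%, the former at the representative start. The Erg peak at 963 bp from the outermost start had 68.1%. The median over all promoter peaks of the list was 63.3%.

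**Figure D5:**
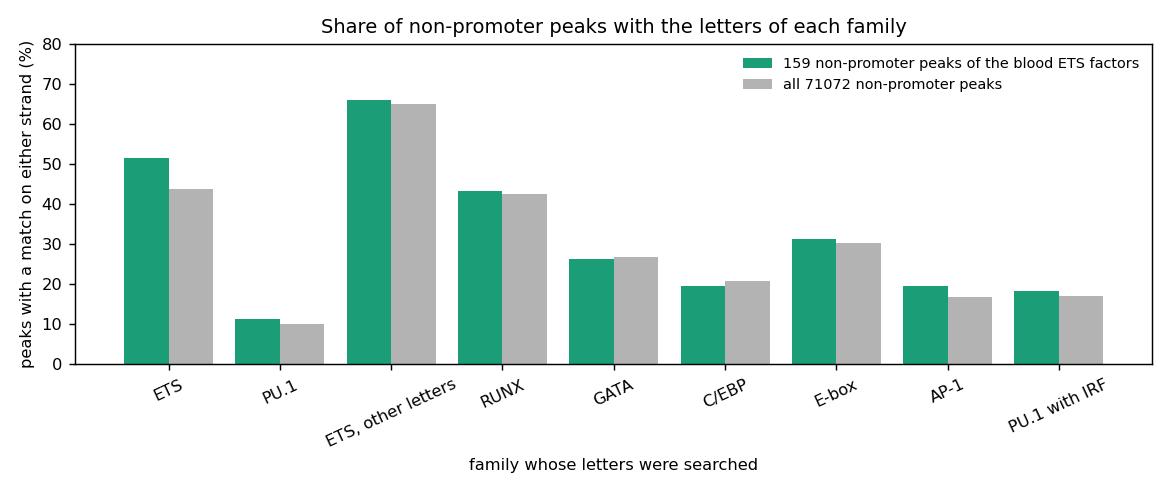
Share in % of the 159 non-promoter peaks of the blood ETS factors (green) and of all 71072 non-promoter peaks (grey) with at least 1 match of each family's letters. The widest difference is at the ETS letters GGAAGT, 51.6% beside 43.9%, and the other families differ less.

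Etv6 stood out for GGAANNGAA, the composite letters at which PU.1 pairs with interferon regulatory factors, an observation made after its values were seen. These letters occurred in 16 of its 32 non-promoter peaks, in 13 of the 127 of the other members (10.2%) and in 17.0% of all non-promoter peaks. Among 317 genes with 20 or more non-promoter peaks the median share was 17.4%, and Etv6 had the highest. The peak at 29515 bp, in an intron, is shown because it had 3 copies of GGAAGT and GGAANNGAA together; the 300 bases are chr6:134065065-134065364 on the plus strand, with both sets of letters in capitals.
Etv6 29515: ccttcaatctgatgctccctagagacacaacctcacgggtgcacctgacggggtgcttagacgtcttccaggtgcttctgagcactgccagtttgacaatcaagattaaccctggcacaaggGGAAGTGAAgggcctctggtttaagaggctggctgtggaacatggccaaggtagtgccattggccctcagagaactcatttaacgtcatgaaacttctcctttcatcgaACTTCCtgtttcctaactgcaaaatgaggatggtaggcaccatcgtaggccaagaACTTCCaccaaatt

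The highest number of GGAAGT in any peak of the 10 genes was 7, in the intergenic peak centred at -29382 bp from the Fli1 start, and 12 of all 84243 peaks had as many. All 7 copies lay on the plus strand, with steps from 23 to 47 bp between neighbouring copies. They form a tandem array of near-regular spacing that the list does not annotate as a repeat. The bases between the copies are similar along the array, so the copies are not independent matches. The 300 bases chr9:32570684-32570983 on the plus strand are shown with GGAAGT in capitals, so that the array can be read. The next highest were 4 copies in the Fli1 peak at 24618 bp and 3 copies in each of the Fli1 peak at -40804 bp and the Etv6 peaks at 29515 and 120757 bp.
Fli1 -29382: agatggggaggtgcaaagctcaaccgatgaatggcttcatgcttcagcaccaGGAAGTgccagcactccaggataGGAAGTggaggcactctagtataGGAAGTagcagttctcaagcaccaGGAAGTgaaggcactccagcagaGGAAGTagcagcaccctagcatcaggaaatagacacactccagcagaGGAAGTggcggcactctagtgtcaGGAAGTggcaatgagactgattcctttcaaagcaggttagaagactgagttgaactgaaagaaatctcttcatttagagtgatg

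Peaks that held GGAAGT with AGATAA and CAGCTG, the only E-box letters searched, numbered 5 (3.14%, beside 3.25% of all non-promoter peaks). They were 1 each of Erg at 26581 bp, Ets1 at 10193 bp, Etv6 at 105801 bp, Elf1 at 31200 bp and Elf4 at 10698 bp, all in introns. The Erg peak, which also held TGTGGT 2 times, is shown as the 300 bases chr16:95432697-95432996 on the plus strand, with GGAAGT and the letters of GATA factors and the E-box in capitals, on either strand.
Erg 26581: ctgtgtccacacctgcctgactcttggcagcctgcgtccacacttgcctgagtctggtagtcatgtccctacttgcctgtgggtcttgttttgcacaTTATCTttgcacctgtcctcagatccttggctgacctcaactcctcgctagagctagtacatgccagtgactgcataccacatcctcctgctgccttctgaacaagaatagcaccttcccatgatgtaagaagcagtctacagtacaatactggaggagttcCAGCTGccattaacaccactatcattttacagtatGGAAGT

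The intronic Ets1 peak at 14440 bp (chr9:32710233-32710731) held TGTGGT 3 times and AGATAA 4 times and was the only peak named for one of the 10 genes with 3 copies of TGTGGT.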

How the data were processed

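ATAC-seq libraries of 12 samples were mapped to mm10 by the authors with the ENCODE pipeline, peaks were called per cell type by reproducibility between replicates (IDR), and the lists were joined and reduced to non-overlapping peaks with chromVAR. The deposited table is this 1 list, annotated with HOMER (4.10.2 in the submitters' processing notes). The deposited peak score is 0 throughout and was used for nothing. Start, end and distance to the nearest start site are positions in bp.

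Peaks were taken by gene name as deposited. Promoter peaks have a centre within 500 bp of the start. Sequences, gene bodies and curated starts came from RefSeq (GRCm38.p6, annotation release 108), and the promoter table held windows for 7 of the 10 genes. Letters were counted on both strands (Python 3.11.15, pandas 2.3.3), and the search was tested on simulated data. The genes, lists and letters were chosen with earlier results of these data known, and all 10 genes are named. No test was made, because no values per sample were used. Sequences of the other upstream peaks of Spi1 are not reported here.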

Additional observations from a re-analysis of the deposited data

How the results depend on the processing

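With every peak in the regulatory domain of a gene counted (2 kb upstream and 1 kb downstream of 1 start per gene, extended up to 1 Mb to the next domain, so that a peak can count for 2 genes), the peaks of the 10 genes rose from 168 to 260. Naming by the nearest curated RefSeq start gave 159 and the RefSeq gene records, which also span predicted transcripts and so can be wider than the curated bodies of the report (139 peaks), gave 141. The upstream peaks of Spi1 numbered 3 by name and 7 by position, among them the Slc39a13 promoter peak (6 without it), and 3 when more than 1000 bp upstream was required. Genes with 10 or more peaks numbered 7, with 5 or more 8, and with 20 or more 4. The share of non-promoter peaks with ETS letters was 51.6% for GGAAGT, 11.3% for GAGGAAGT and 66.0% for AGGAAG. In the central 200 bp it was 37.1%, beside 29.9% over all non-promoter peaks. Promoter peaks numbered 6 within 100 bp of the start, 11 within 1000 bp and 13 by curated RefSeq starts of the same gene, Gabpa included. By gene, the domain rule moved 6 of the 10 counts by over 1.5 times, among them Elf1, to 1 peak. Gene records moved 4 and the nearest RefSeq start moved 2, Spi1 to 8 peaks and Etv6 to 22. A stricter score could not be applied, because the score is 0 in every peak, and merging overlapping peaks could change nothing. No paired analysis was possible because the list holds no values per sample. Depth is unknown and the list was filtered, so a region without a peak is not shown to be closed in any of the 6 populations.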
